A study of Mus musculus with 6 samples.

Results

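The T cell receptor variable segments are the germline gene pieces that encode the part of the receptor that meets the antigen. They were taken as every row of the count table whose symbol begins with Trav (α chain), Trbv (β chain), Trgv (γ chain) or Trdv (δ chain) and whose summed counts over the libraries were above 0. Of 170 such rows annotated and present in the table of 55401 genes, 58 qualified: 37 Trav, 18 Trbv, 1 Trgv and 2 Trdv. The members nearest to that limit were 11 segments with a summed count of 2, and the 112 rows left out were at 0 in every library. The members were thus chosen by their counts in these same libraries, so being seen at all is a description and not a finding. The data are RNA sequencing of polyadenylated RNA from the mouse lacrimal gland, which secretes tears, in 3 samples of ICR, an outbred stock labelled as the control, and 3 of NOD/Ltj, an inbred strain with spontaneous autoimmunity in which Sjögren's syndrome is modelled. The labels name no treatment and no engineered allele in either group, and give neither age nor sex. Libraries are called ICR 1 to ICR 3 and NOD 1 to NOD 3, and whether each stands for its own animal is not in the labels. Every p-value therefore refers to the spread among these samples, which may be technical.

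Each developing T cell joins one V segment to a joining segment (with a diversity segment between them in β and δ chains) and to a constant region, and its descendants keep that choice. Most T cells carry an α and a β chain, and a smaller lineage carries γ and δ chains. Inflamed tear and salivary glands of Sjögren's syndrome hold many αβ T cells, and the set of V segments in their RNA is a coarse view of how many different receptors are present. In whole-gland RNA, more T cells and more receptor RNA per cell cannot be told apart.

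The following are the last 300 coding bases of reference sequences from GENCODE release M21 (annotated on build GRCm38), and not of the samples. They are shown because they set how well a read can name its segment. The Trbv13 segments had the highest identity among the 18 Trbv members, yet remain distinct. Trbv13-2 had the most counts of any member, and capitals in its relatives mark bases that differ from it. The whole coding sequence of Trbv13-1 is also 3 bases shorter (337 against 340).
Trbv13-2: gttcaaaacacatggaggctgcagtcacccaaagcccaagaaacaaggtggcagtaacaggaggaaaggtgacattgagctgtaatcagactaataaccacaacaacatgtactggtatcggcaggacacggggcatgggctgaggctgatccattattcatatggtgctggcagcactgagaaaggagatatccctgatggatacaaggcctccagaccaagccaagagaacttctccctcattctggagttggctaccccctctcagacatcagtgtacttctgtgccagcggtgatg
Trbv13-1: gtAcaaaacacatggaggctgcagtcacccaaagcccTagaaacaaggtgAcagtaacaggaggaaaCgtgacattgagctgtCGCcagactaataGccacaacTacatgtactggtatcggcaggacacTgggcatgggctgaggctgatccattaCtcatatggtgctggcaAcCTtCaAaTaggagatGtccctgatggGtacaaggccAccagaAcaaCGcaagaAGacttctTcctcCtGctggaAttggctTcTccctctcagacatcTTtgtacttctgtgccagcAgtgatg
Trbv13-3: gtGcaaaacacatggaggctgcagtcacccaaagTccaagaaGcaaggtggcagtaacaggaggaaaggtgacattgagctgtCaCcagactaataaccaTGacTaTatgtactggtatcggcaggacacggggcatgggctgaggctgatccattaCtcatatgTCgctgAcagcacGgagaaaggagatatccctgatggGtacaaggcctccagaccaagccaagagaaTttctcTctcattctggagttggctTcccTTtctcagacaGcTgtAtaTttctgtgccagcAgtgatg
Trbv13-2 and Trbv13-3 were identical at 90.6% of their coding bases. Over the 153 pairs of Trbv members, identity ran from 52.4 to 90.6% with a median of 59.1%. None of the 18 shared a stretch of 150 bases, the read length, with another V segment of the release. Trbv26, with the next most counts, ends in this coding sequence.
Trbv26: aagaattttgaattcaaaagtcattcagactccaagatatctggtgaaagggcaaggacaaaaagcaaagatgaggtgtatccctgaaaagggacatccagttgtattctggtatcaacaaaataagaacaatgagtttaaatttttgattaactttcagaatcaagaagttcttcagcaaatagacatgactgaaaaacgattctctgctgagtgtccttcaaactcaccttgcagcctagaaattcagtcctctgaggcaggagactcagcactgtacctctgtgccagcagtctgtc
The α segments are different, because the C57BL/6J reference locus holds repeated copies whose names carry the letters d and n. Of 37 Trav members, 10 shared every stretch of 150 bases with another V segment, and 14 shared more than 50% of them. Trav5d-4 and Trav5n-4 are identical over all 343 coding bases, so 1 sequence stands for both.
Trav5d-4: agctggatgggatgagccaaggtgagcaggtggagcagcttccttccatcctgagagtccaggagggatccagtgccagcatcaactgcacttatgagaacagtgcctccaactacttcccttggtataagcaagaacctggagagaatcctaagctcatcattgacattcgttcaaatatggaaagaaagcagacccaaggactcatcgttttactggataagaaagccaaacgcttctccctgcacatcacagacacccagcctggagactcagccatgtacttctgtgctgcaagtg
Among the Trav members, 12 pairs differed in name only by the copy letter, and 5 of these pairs had equal counts in every library. They were Trav5d-4 with Trav5n-4 (4 counts each), Trav9d-4 with Trav9n-4 (4 each), Trav12d-2 with Trav12n-2 (3 each), Trav14d-2 with Trav14n-2 (3 each) and Trav7d-2 with Trav7-2 (2 each). No aligned coding base differed within these pairs. Trav9d-4 and Trav9n-4 differ by a gap of 30 bases, and 70.8 and 73.3% of their 150-base stretches recur in another V segment. Whether reads could tell these copies apart was not tested. In the other pairs 99.47 to 100% of the stretches recur, and their counts cannot be assigned to one copy.

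The end of each V segment is where it joins the next piece, at a conserved cysteine codon. The 5 letters TGTGC, searched on the coding strand of the last 36 coding bases, were found in 16 of 18 Trbv members and 3 of 4 Trbv genes that were not seen. They were found in 32 of 36 Trav members annotated as genes and in 54 of 72 Trav genes not seen. The ends of the leading segments are given with these letters in capitals. Trbv20 lacks them, and so does Trav6n-6. Both ends still hold a cysteine codon, TGT in Trbv20 and TGC in Trav6n-6, so lacking the letters is not lacking the cysteine.
Trbv13-2: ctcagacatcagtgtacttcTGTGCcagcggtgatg
Trbv26: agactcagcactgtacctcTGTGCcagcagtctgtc
Trbv16: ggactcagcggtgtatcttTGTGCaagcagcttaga
Trbv3: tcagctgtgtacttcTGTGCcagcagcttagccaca
Trbv20: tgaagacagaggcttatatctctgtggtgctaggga
Trav13-2: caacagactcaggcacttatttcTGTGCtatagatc
Trav6n-6: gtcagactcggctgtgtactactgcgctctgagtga

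V segment RNA was scarce everywhere and was more abundant in the NOD/Ltj libraries. The 58 segments together held 16, 0 and 7 estimated counts in ICR 1, 2 and 3. They held 51, 467 and 167 in NOD 1, 2 and 3. Every NOD/Ltj library was above every ICR library. Scaled to 1000000 counts of library size with TMM factors (CPM), the mean sum was 3.10 ± 2.48 CPM across NOD/Ltj and 0.118 ± 0.116 CPM across ICR (SD, n = 3 each). NOD 2 alone held 68.2% of the NOD/Ltj counts, and the NOD/Ltj mean without it was 1.74 CPM. The ICR mean was 0.0611 CPM without ICR 1 and 0.177 CPM without ICR 2. About 4 estimated counts stand for 1 sequenced fragment in this table, so the V segments rested on about 171 fragments in NOD/Ltj and 6 in ICR. The ratio of the groups was 28.0-fold (95% exact interval 12.1 to 74.0). That interval and the floors below cover counting error only, and not the spread between libraries. A count of 0 in a library allows up to 3 fragments, or 12 counts, which is 0.149 to 0.222 CPM.

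**Figure D1:**
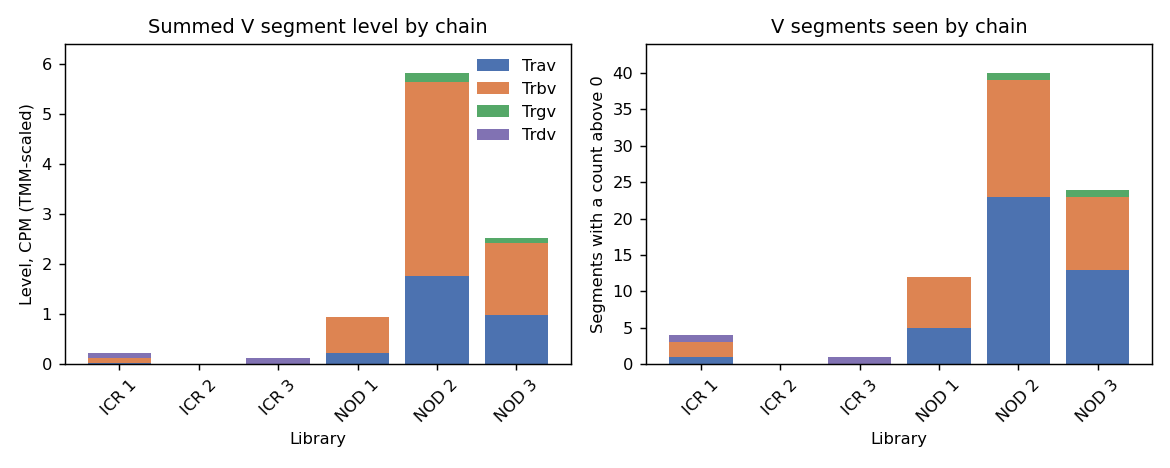
Left, the summed level of V segments in CPM for each library, stacked by chain. Right, the number of segments with a count above 0, stacked by chain. The NOD/Ltj libraries reach 0.944, 5.81 and 2.53 CPM with 12, 40 and 24 segments, and ICR 2 has no V segment count.

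The β chain led. Trbv segments summed to 6, 0 and 0 counts in ICR, and to 39, 312 and 95 across NOD/Ltj. All 3 NOD/Ltj libraries lay above ICR, and the NOD/Ltj level was 2.01 ± 1.66 CPM (SD, n = 3). On fragments, NOD/Ltj was 69.9-fold above ICR with a 95% exact interval of 14.2 to 440.2, since ICR rested on about 2 fragments. Trav segments summed to 2, 0 and 0 counts in ICR, and to 12, 141 and 65 across NOD/Ltj, or 0.987 ± 0.767 CPM in NOD/Ltj (SD, n = 3). The α sum of ICR came to less than 1 fragment, so no fold is given. Trbv counts exceeded Trav counts in each NOD/Ltj library, 3.25, 2.21 and 1.46 times in NOD 1, 2 and 3.

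The γ and δ segments were close to the limit of detection, and only Trgv2 in NOD 2 exceeded 12 counts. Trgv2, the only γ segment whose symbol in release M21 begins with Trgv, had 0 counts in ICR, and 0, 14 and 7 across NOD/Ltj. Another 6 γ segments carry symbols that begin with Tcrg-V and fall outside the members. Of these, Tcrg-V4 had 10 counts in NOD 1 and the others had none. The δ segments Trdv4 (8 counts in ICR 1) and Trdv2-2 (7 counts in ICR 3) were seen in 1 ICR library each and not in NOD/Ltj. Of the 3 members seen in ICR alone, the other is Trav7-5, with 2 counts in ICR 1. These counts stayed under 12 in each library, so no difference between the strains was detectable for δ segments at this depth. Both lie opposite a long non-coding gene on the other strand (Gm30275 for Trdv4 and Gm43647 for Trdv2-2), and those genes were at 0 in every library.

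More segments were seen where more counts were present. The number seen was 4, 0 and 1 in ICR and 12, 40 and 24 in NOD/Ltj, or 1.67 ± 2.08 and 25.3 ± 14.05 (SD, n = 3 each). Of the 58 members, 53 had counts in NOD/Ltj alone, 3 in ICR alone and 2 in both strains. Among the 11335 genes with a summed count no higher than the leading member, 26.3% had counts in NOD/Ltj alone and 20.4% in ICR alone. NOD 2 was the only library with counts for 26 members, against 7.36% of those low-count genes, and 32 members had a count when it was left out. Those 32 were 17 Trav, 12 Trbv, 1 Trgv and 2 Trdv. For a comparison at an equal number of V fragments, counts were divided by 4 and rounded for each segment, with at least 1 fragment for a segment seen, which gave 16, 118 and 44 fragments in NOD 1, 2 and 3. With each library reduced to 16 by the hypergeometric formula, the expected number seen was 12, 12.4 and 12.5 in NOD 1, 2 and 3. With so few fragments most fall on different segments, so this measure had little room to differ. ICR 2 had no V counts, so the ICR libraries could not be compared at a common depth.

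No pseudogene was among the β segments seen. The β locus on chromosome 6 holds 22 annotated V genes and 13 V pseudogenes, and 18 of the genes and 0 of the pseudogenes had counts. The genes at 0 were Trbv12-1, Trbv21, Trbv23 and Trbv30. On chromosome 14, 36 of 108 Trav genes had counts and 1 of 20 Trav pseudogenes. That pseudogene, Trav9n-1, had 15 counts in NOD 3 and 0 elsewhere. Over the 4 chains, 57 of 136 V genes and 1 of 34 V pseudogenes were seen. By copy, 14 of 55 Trav segments without a letter, 12 of 39 with d and 11 of 34 with n had counts. These shares were 25.5, 30.8 and 32.4%. The segments without a letter include some that have no d or n copy, such as Trav1.

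**Figure D2:**
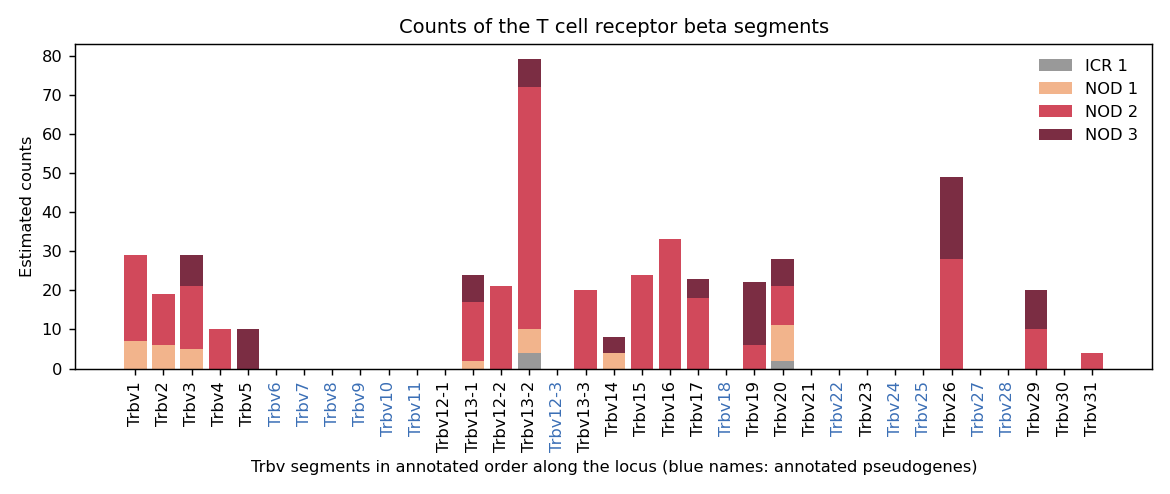
Estimated counts of all 35 annotated Trbv segments in their order along the locus, stacked by library (ICR 2 and ICR 3 had none). The 18 segments seen are annotated V genes, Trbv13-2 reaches 79 counts, and each annotated pseudogene (blue name) is at 0.

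Among the β segments, Trbv13-2 (listed by RefSeq with the older name Tcrb-V8.2) had 4, 0 and 0 counts in ICR, and 6, 62 and 7 across NOD/Ltj. Its counts came mostly from NOD 2, and its lowest NOD/Ltj level (0.111 CPM) was above its highest ICR level (0.0577 CPM). Both of these levels rest on fewer than 12 counts, the floor given above. Trbv26 had 0 counts in ICR, and 0, 28 and 21 across NOD/Ltj, so NOD 1 did not differ from ICR. Trbv16 was seen in NOD 2 alone, with 33 counts. Trbv1 had no counts in ICR, and 7, 22 and 0 across NOD/Ltj. Trbv3 had 0 in ICR and 5, 16 and 8 in NOD/Ltj, and was thus seen in every NOD/Ltj library and in no ICR library.

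The segments seen in every NOD/Ltj library were Trbv3, Trbv13-1, Trbv13-2, Trbv20 and Trav6n-6. Trbv13-1 and Trbv20 are named after their values were seen. Trbv20 had 2, 0 and 0 counts in ICR, and 9, 10 and 7 across NOD/Ltj, the most even of the 5 across NOD/Ltj. Trbv13-1 had 0 in ICR and 2, 15 and 7 in NOD/Ltj. These 5 were also the only members whose lowest NOD/Ltj level exceeded the highest ICR level, which held for 4.01% of the 11335 low-count genes. A member at 0 in any NOD/Ltj library could not meet this. Their lowest NOD/Ltj counts were 1 (Trav6n-6), 2 (Trbv13-1), 5 (Trbv3), 6 (Trbv13-2) and 7 (Trbv20). All lie under the floor of 12 counts, so the separation is not resolved for single segments at this depth. Of the other members, 11 were seen in 2 NOD/Ltj libraries, 39 in 1 and 3 in none.

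The other 11 Trbv members are also named after their values were seen, and all were at 0 in ICR. Trbv17 had 0, 18 and 5 counts in NOD 1, 2 and 3. Trbv19 had 0, 6 and 16, and was thus highest in NOD 3. Trbv29 had 0, 10 and 10, Trbv2 had 6, 13 and 0, and Trbv14 had 4, 0 and 4. Segments with counts in NOD 2 alone were Trbv15 (24), Trbv12-2 (21), Trbv13-3 (20), Trbv4 (10) and Trbv31 (4), beside Trbv16. Trbv5 had 10 counts, in NOD 3 alone. Trbv4 and Trbv5 overlap the long non-coding gene 5830405F06Rik on the same strand, which had 14 counts in NOD 2 and 0 elsewhere, so their counts are uncertain. The closest relatives by sequence did not share a pattern: Trbv13-1 and Trbv13-2 were seen in every NOD/Ltj library and Trbv13-3 in 1.

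The α segments were spread more thinly. Trav13-2 had 0 counts in ICR, and 0, 21 and 4 across NOD/Ltj. Trav4-2 had 18 counts in NOD 2 alone, and Trav9-4 had 11 in NOD 3 alone. Trav6n-6 had 2, 13 and 1 counts in NOD 1, 2 and 3 and 0 in ICR. Among Trav members named after their values were seen, Trav10d had 10 counts in NOD 2, Trav14n-1 had 10 in NOD 3, and Trav14n-3 had 4 in NOD 1 and 5 in NOD 2. Trav14d-1, identical to Trav14n-1 over 364 coding bases, had 2 counts in NOD 3, so equal sequences did not always receive equal counts. Segments with dv in their symbol can join either an α or a δ chain, and those seen were Trav14d-3-dv8 (6 counts), Trav16d-dv11 (5), Trav15-2-dv6-2 (4), Trav4-4-dv10 (2) and Trav6-7-dv9 (2). Their counts, each in 1 NOD/Ltj library, cannot be assigned to a chain. Of the 37 Trav members, 32 were seen in 1 NOD/Ltj library and 23 never exceeded 4 counts in a library, or about 1 fragment. The median summed count was 4 for Trav members and 22.5 for Trbv members. Trav11 and Trav11d, the α segments of invariant natural killer T cells, were at 0 in every library. So was Trav1, the α segment of mucosal-associated invariant T cells. Of 108 Trav genes 72 were at 0, so such zeros are not particular to these segments. Their joining partners had 2, 0 and 0 counts in ICR, and 2, 3 and 0 across NOD/Ltj for Traj18 and 1 count, in NOD 2, for Traj33. All 60 Traj segments together had only 2, 1 and 7 counts in ICR, and 10, 18 and 24 across NOD/Ltj. These values do not show whether innate-like T cells were present.

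**Figure D3:**
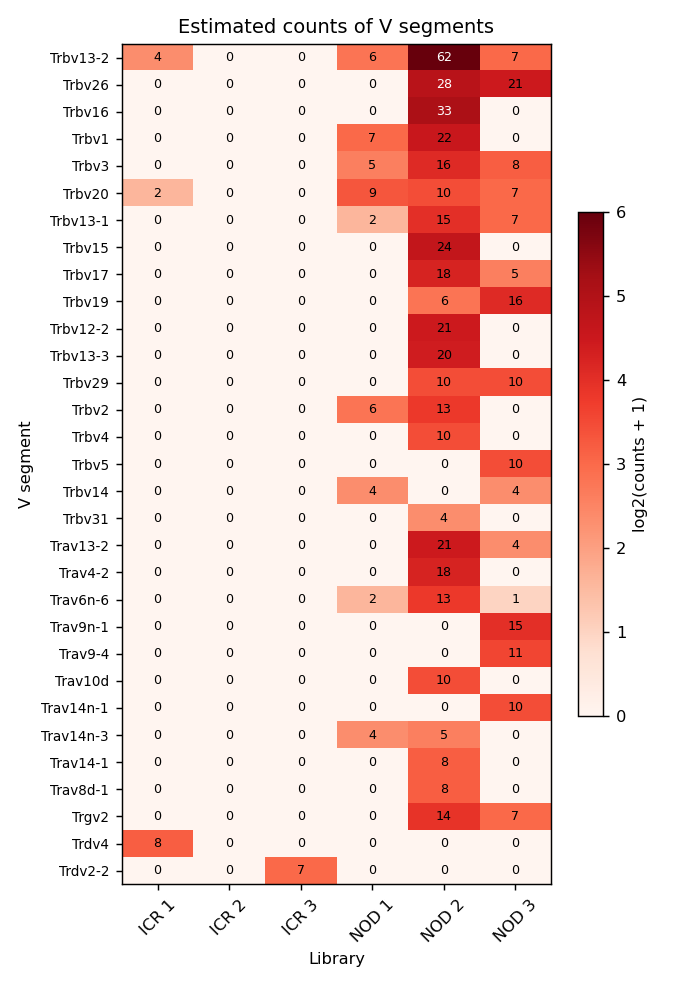
Estimated counts per library for the 18 Trbv members, the 10 Trav members with the most counts, and the γ and δ members, with colour on a log2(counts + 1) scale. Most cells of the plot are 0 in ICR, and NOD 2 holds the highest values, up to 62 for Trbv13-2.

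The overlap between NOD/Ltj libraries was greater for β than for α segments in these counts, and that difference was not tested. Trav segments had 218 counts in NOD/Ltj and Trbv segments 446. Of the 37 Trav members 23 never exceeded 4 counts in a library, or about 1 fragment, against 2 of the 18 Trbv members. The pools differ too, with 22 annotated Trbv genes against 108 Trav genes, and random picks from a smaller pool overlap more. The parts of unequal depth and pool size in the overlap were not tested. The contrast therefore does not show that β receptors were more alike between libraries. NOD 2 and NOD 3 shared 8 Trbv segments, 50.0% of the 16 in NOD 2 and 80.0% of the 10 in NOD 3. They shared 2 Trav segments, 8.70% of the 23 in NOD 2 and 15.4% of the 13 in NOD 3. NOD 1 shared 6 of its 7 Trbv segments with NOD 2 and 5 with NOD 3. Of its 5 Trav segments, 2 were shared with each.

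No single segment dominated the V counts of a NOD/Ltj library when all chains were pooled. Evenness (Shannon entropy divided by its maximum, where 1 means equal counts) was 0.943, 0.901 and 0.928 in NOD 1, 2 and 3. The leading segment took 17.6% of V counts in NOD 1 (Trbv20, 95% exact interval on fragments 1.92 to 45.4%). In NOD 2 it took 13.3% (Trbv13-2, 8.02 to 21.3%), and in NOD 3 12.6% (Trbv26, 3.98 to 25.6%). These wide intervals overlapped, and the leading segment was a different one in each library. Pooling the chains lowers such shares. Within Trbv the leader took 23.1, 19.9 and 22.1% in NOD 1, 2 and 3. Within Trav it took 33.3, 14.9 and 23.1%, with an interval in NOD 1 of 0.840 to 90.6%. Over Trbv alone, evenness was 0.962, 0.929 and 0.947. Over Trav alone it was 0.970, 0.917 and 0.890. Segments seen once push this index towards 1 by construction. In ICR only ICR 1 held more than 1 segment, so evenness was not compared between strains.

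None of the 58 members could be tested with the filter on low counts, since 0 passed it. The test was the quasi-likelihood test of edgeR with Benjamini-Hochberg adjustment over 18537 genes, which called 2.24% of them at an adjusted p under 0.05 (1.88% higher and 0.361% lower in NOD/Ltj). With no filter, edgeR called 0 of 58 members, where 1.30% of 29367 genes were called, and 6 were higher in NOD/Ltj and 0 lower at an unadjusted p under 0.05. DESeq2 without the filter called 0 of the 13 members to which it gave an adjusted p (4.15% of genes called, 5 members higher at an unadjusted p under 0.05). Limma-voom without the filter called 1, Trbv3 (log2 fold change 4.16 ± 0.75 SE, adjusted p = 0.0477), where 1.18% of genes were called and 11 members were higher at an unadjusted p under 0.05. The share of all genes at an unadjusted p under 0.05 was not taken, so those member counts have no background to be read against. Because 53 of the 58 members had counts in NOD/Ltj alone, their direction was largely set beforehand and is not a result. The fold change of Trbv3 depends on the prior count, because its ICR libraries were all at 0. Trbv26 passed the filter in each fit that left out NOD 1 or an ICR library, with adjusted p of edgeR between 0.152 and 0.403.

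The constant regions, which every rearranged receptor transcript carries, gave enough counts to test. Trbc1 had 31, 56 and 51 counts in ICR, and 291, 1297 and 711 across NOD/Ltj. It rose by 3.85 ± 0.50 (log2, SE; edgeR adjusted p = 0.013), to 10.8 ± 5.38 CPM across NOD/Ltj from 0.748 ± 0.260 across ICR (SD, n = 3 each). Trbc2 had 7, 26 and 46 counts in ICR, and 289, 1809 and 917 across NOD/Ltj. It rose by 4.99 ± 0.81 (log2, SE; edgeR adjusted p = 0.0251). These 2 genes are close copies, so reads may have been divided between them. Trac, the α constant region, had 18, 0 and 23 counts in ICR, and 157, 728 and 588 across NOD/Ltj. Its groups did not overlap, which held for 20.1% of the genes tested, but it did not pass (log2 fold change 4.97 ± 1.02 SE, edgeR adjusted p = 0.0589), while DESeq2 called it (adjusted p = 0.00628). Trdc, the δ constant region, did not pass (log2 fold change 2.06 ± 0.52 SE, edgeR adjusted p = 0.112), with 3.92 ± 1.76 CPM across NOD/Ltj against 0.937 ± 0.397 across ICR (SD, n = 3 each). DESeq2 called it (adjusted p = 0.00317). The γ constant regions did not pass with edgeR either, Tcrg-C1 with 2.46 ± 0.61 (edgeR adjusted p = 0.107), Tcrg-C2 with 3.33 ± 1.35 (0.354) and Tcrg-C4 with 2.53 ± 0.82 (log2, SE, 0.231). Tcrg-C1 was called by DESeq2 (adjusted p = 0.00322) and by edgeR without ICR 1 (0.0279). Tcrg-C3 had 6 counts, in NOD 3. The call of Trbc1 ended with limma-voom (adjusted p = 0.0547) and without NOD 2 (0.0586), NOD 3 (0.080), ICR 2 (0.0553) or ICR 3 (0.0562). That of Trbc2 ended with limma-voom (0.117) and without the same libraries (0.107, 0.117, 0.113 and 0.0627).

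V segments were counted less densely than the constant regions of the same chain. Per kb of transcript, Trbv segments summed to 1.84, 10.3 and 3.69 CPM per kb in NOD 1, 2 and 3. Trbc1 and Trbc2 together stood at 15.0, 54.4 and 34.7 CPM per kb. The V level was thus 12.2, 18.8 and 10.6% of the constant level. For the α chain, Trav stood at 0.579, 4.53 and 2.56 CPM per kb and Trac at 3.11, 9.69 and 9.52, or 18.6, 46.7 and 26.8%. Each rearranged transcript holds one V and one constant region. How reads across the V junction, or from alleles that differ from the C57BL/6J reference, were aligned and counted was not tested.

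**Figure D4:**
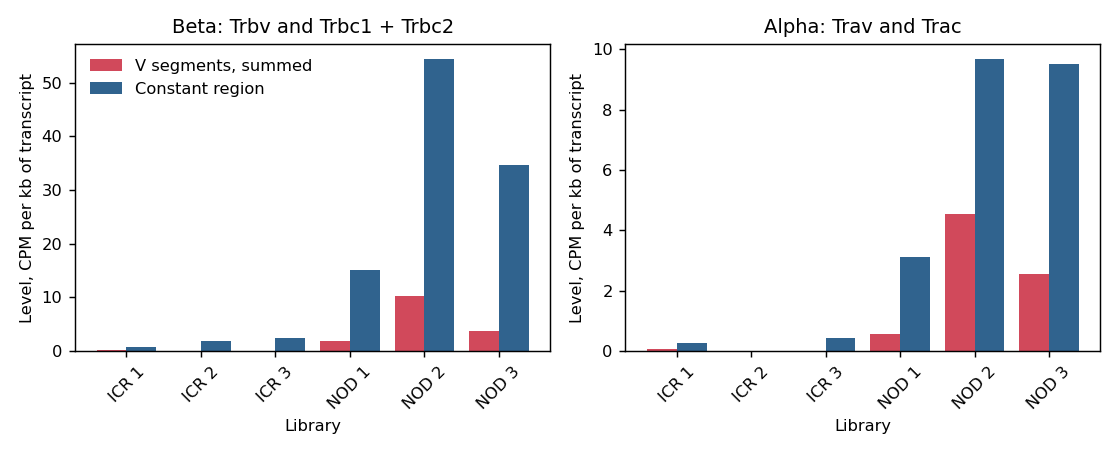
Levels in CPM per kb of transcript for the summed V segments and for the constant region of the β chain (left) and the α chain (right), by library. In each NOD/Ltj library the V bar is lower than the constant bar, from 10.6 to 18.8% of it in β and from 18.6 to 46.7% in α.

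The CD3 chains, which carry the receptor's signal into the cell, gave a scale for the amount of T cell RNA. Cd3e rose by 4.42 ± 0.47 and Cd3g by 4.78 ± 0.61 (log2, SE; edgeR adjusted p = 0.0107 and 0.0128). Their calls ended with limma-voom (adjusted p = 0.0503 and 0.0547) and without NOD 3 (0.0665 and 0.0792), and Cd3g was also not called without ICR 3 (0.064) or NOD 2 (0.0634). Cd3d (4.28 ± 1.08, adjusted p = 0.113) and Cd247 (3.57 ± 0.90, log2, SE, edgeR adjusted p = 0.112) did not pass, while DESeq2 called both (adjusted p = 0.000248 and 0.000299) and edgeR without NOD 1 called Cd247 (0.0206). Per 100 counts of these 4 chains, V segments had 20.3, 0 and 10.8 counts in ICR, and 7.91, 16.6 and 8.95 across NOD/Ltj. On this scale the groups overlapped. The ICR values rest on 16, 0 and 7 V counts over 79, 85 and 65 CD3 counts. Segments of the δ chain held 50.0% of the V counts of ICR 1 and 100% of those of ICR 3. The overlap therefore does not show that the strains had a similar amount of V segment RNA for their T cell RNA.

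Genes of receptor rearrangement were at or near 0. Rag1 and Rag2, the recombinase that joins the segments, were at 0 in every library. Ptcra, the partner of the β chain in immature thymocytes, had 4, 8 and 0 counts in ICR and none in NOD/Ltj. Dntt, which adds bases at the joints, had 16 counts in ICR 3 and 0 elsewhere, and is named after its values were seen.

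Marker lists set these values beside the cell types of the gland. Of 15 T cell genes, 10 rose and 0 fell by edgeR, with a median log2 fold change of 4.26, against −0.03 over all genes tested. Examples are the receptor kinases Lck (4.28 ± 0.50, log2, SE; edgeR adjusted p = 0.0108) and Zap70 (4.26 ± 0.69, adjusted p = 0.0251) and the adhesion receptor Cd2 (3.86 ± 0.43, adjusted p = 0.0108). Thy1, which other cells of a gland can also express, did not pass (0.18 ± 0.21, adjusted p = 0.804). Counts of calls rested on NOD 3 most, since without it 11 genes of the whole table were called higher. Of the receptor constant regions, 2 of 7 tested rose (median 3.33). Among 9 coreceptors and transcription factors of T cells, Tcf7 and Ets1 rose (median 2.83). The coreceptors Cd4 (4.79 ± 1.06, adjusted p = 0.0761) and Cd8a (2.83 ± 0.56, log2, SE, edgeR adjusted p = 0.0507) did not pass. Blk and Cd163l1 were the 2 that rose among 5 tested genes of γδ and type 17 cells (median 0.58), and Blk is also a B cell kinase. No gene was called among the 3 tested of the list for innate-like T cells (Zbtb16, Cd1d1 and Mr1, median −0.49). Cd1d1 and Mr1 encode molecules that present antigen to such cells, so this median does not measure the cells themselves. There was also no call for the 1 tested of the rearrangement list (Cd1d1, 2.03) or 4 natural killer genes (median 1.91). Of 7 B cell genes, 6 rose (median 6.28), with a summed level of 2.06 to 4.86 CPM in ICR and 96.2 to 394 in NOD/Ltj. The 4 plasma cell genes (median 0.45) and the 6 acinar genes (median −0.10) held no call. The part of changed cell make-up in the V segment values was not tested. The acinar genes summed to 3213 to 7521 CPM in ICR and 6316 to 8357 in NOD/Ltj.

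Immunoglobulin V segments, the B cell counterpart, were far more abundant in the same libraries and did not separate the strains. Ighv segments summed to 216, 3703 and 780 counts in ICR, and 3500, 3014 and 1665 across NOD/Ltj, and Igkv segments to 1589, 15380 and 3768 and to 10934, 10568 and 6458. ICR 2 held more of both than NOD 3 did, while it held no T cell receptor V count.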

How the data were processed

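The authors deposited 1 table of estimated counts per gene, in whole numbers, with no scaling from library to library. Of tools, fastp, StringTie and edgeR are named in the submitters' processing notes; the aligner, build, counting and strand setting were not given in the sources used here. Per the labels' protocols, libraries were poly(A)-selected, dUTP-stranded and read as 150 bp pairs. Library totals ran from 58426580 to 76554340 counts. Low values piled up at multiples of 4 (30.4 to 31.7% of values from 1 to 40, against 25%), so 4 counts were read as 1 fragment. Of the 81 V segment values above 0, 28.4% were such multiples, so fragment numbers, floors and intervals for them are approximate. Symbols came from GENCODE M21 and matched 55141 of 55401 identifiers.

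Differences were tested with edgeR 4.0.16 (R 4.3.3; quasi-likelihood, TMM, filterByExpr, no block, two-sided), with DESeq2 1.42.0 and limma-voom (limma 3.58.1) as alternatives; the edgeR script was tested on simulated data. The count test had been planned for plain counts and was kept, since the values were whole. SE was taken as the log2 fold change, without its sign, over the root of F. Lengths per kb are those of the longest annotated transcript. The text names called segments, the 5 Trav, 5 Trbv, 3 Trgv and 2 Trdv segments with the most counts (1 Trgv existed), the α segments of innate-like T cells, and the receptor, CD3 and rearrangement genes; others are marked. The members and lists were chosen with earlier results of these data known. Each pair of libraries differed beyond counting noise, by chi-square over genes.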

Additional observations from a re-analysis of the deposited data

How the results depend on the processing

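The count of genes called over the whole table moved with the setting. Against 349 higher and 67 lower genes, DESeq2 gave 898 and 285 (940 and 279 without the filter), and limma-voom 123 and 20. RLE factors (340 and 66) and edgeR without the filter (324 and 57) stayed close. With 1 library left out the counts ran from 11 (without NOD 3) to 406 (without ICR 1) higher and from 2 (without NOD 3) to 118 (without ICR 1) lower; both were also over 1.5 times smaller without NOD 2, ICR 2 or ICR 3 (63, 112 and 120 higher, 10, 30 and 29 lower), and 37 genes were lower without NOD 1. The labels do not say that replicate numbers pair samples. Deviations of same-numbered libraries correlated at −0.12, −0.15 and 0.07, and those of other pairs at −0.068 to 0.167. With 3 libraries per group these values cannot settle whether samples were paired. With the numbers as a replicate block in edgeR, 129 genes were higher and 25 lower, and Cd3e was not called (adjusted p = 0.0509). Of the V segments, 0 passed the filter, so only fits without it, or with a library left out, tested any. These called 0, except limma-voom without the filter (1, chosen after seeing the data). The mean number of segments seen per NOD/Ltj library fell from 25.3 to 6 when at least 12 counts were asked for, and ran from 18 to 32 with 1 NOD/Ltj library left out. Mean NOD/Ltj evenness of 0.924 became 0.654 as an inverse Simpson index per segment seen, and 0.708 with the maximum taken over the 58 members. Thinning every library to the smallest V total was not run, because ICR 2 had none. Depth limits single segments: 25 of 58 members never exceeded 4 counts in a library.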

Other observations

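Joining segments, which follow the V segment in the receptor transcript, had fewer raw counts than V segments in NOD/Ltj and not in ICR. These counts were not scaled to segment length, so they do not compare how densely the 2 kinds of segment were covered. Trbj segments summed to 13, 8 and 7 counts in ICR, and 13, 75 and 45 across NOD/Ltj, and each of the 14 annotated ones was seen in at least 1 library. Traj segments summed to 2, 1 and 7 counts in ICR, and 10, 18 and 24 across NOD/Ltj, with 28 of 60 seen. In NOD 1 the Trbj sum was the same as in ICR 1, while Trbv stood at 39 against 6 counts.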
